A study of Rattus norvegicus with 8 samples.

Results

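Expression of 9 complement genes (C1qa, C1qb, C1qc, C1r, C1s, Serping1, C2, Cfb and C3) was followed in rat lung tumor, normal lung and blood clot. The genes were found on the array by the RefSeq accession of each probe, and each of the 9 genes had 1 probe printed in 1 spot, so 9 of 24684 probes that are not controls are described. The complement system is a protease cascade of blood and tissue fluid that coats microbes, dying cells and immune complexes. In its classical pathway C1q binds a target and switches on the proteases C1r and C1s, which cut C4 and C2, while the alternative pathway uses factor B, the product of Cfb, and both routes assemble enzymes that cut C3. The C1 inhibitor, the product of Serping1, shuts off C1r and C1s. Liver makes most plasma complement, macrophages and dendritic cells make most C1q, and lung epithelium also makes several components.

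The study asked which transcripts differ in lung carcinogenesis caused by NNK, a nitrosamine of tobacco smoke, in male F344 rats. At week 95, 3 tumors of the lung and 3 matched pieces of normal lung, all from the NNK treatment group, gave RNA, as did 1 clot of whole blood of the control group and 1 clot of the NNK treatment group. The methods describe the tumors as moderately differentiated adenocarcinoma, and normal lung of untreated rats was not analysed here. Of the labels of the NNK clot, the title, source and tissue name a blood clot and the description names a tumor, and the sample was treated here as blood.

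Signals are given as the log2 of the background-subtracted signal of the scanner software, with quantile normalization run separately on the 6 lung and the 2 blood arrays, so that 1 unit is a 2-fold difference. A probe was called higher or lower in lung tumor if it changed 2-fold or more with a Benjamini-Hochberg adjusted p of at most 0.05 in limma, adjusted over all probes tested. The software marked spots as non-uniform or population outliers, and these were left out of the main setting. Such marks fell on 4.92% to 8.62% of the well-measured spots on normal lung arrays and on 15.9% to 25.3% on tumor arrays. They removed the only spot of C1qc, C1s and Serping1 from too many tumor arrays for a test, so these genes are given from a fit that kept the marked spots.

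The arrays within a group were not equally independent. Tumor 2 and tumor 3 differed by 0.585 times the mean squared difference that the scatter among triplicate spots of a probe gives, while tumor 1 differed from them by 6.32 and 6.52 times that value. Among normal lung arrays this ratio was 0.819 to 1.38, against 24 to 34 between normal lung and tumor. Tumor 2 and tumor 3 were therefore also counted as 1 sample, and the normal lung arrays likewise as 1, and means ± SD below are those of tumor 1 and the mean of tumor 2 and 3 (n = 2). The normal lung arrays and tumor 1 shared a slide, and tumor 2 and 3 lay on another, so that the difference between tumor 1 and the others cannot be told apart from the slide. Precision is limited by the few arrays, and p-values measure only the spread between these arrays.

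The deposited probe sequences were not used here, and the RefSeq sequence just before the transcription start (rat build GRCr8, 250 bases, strand of the gene) is shown instead for C1qa, C1qb, C1r and C3. These are the members matched in the promoter table, and C1qc, C1s, Serping1, C2 and Cfb were not matched there. Capitals mark matches, on either strand, to 4 short motifs that were searched: TTCNNNGAA (a STAT site), GAGGAA (the core of a PU.1 site), GAAANNGAA (a pair of interferon regulatory factor cores) and GGGANTTNC (part of an NF-kB site). The windows lie at chr5:154419934-154420183 (minus strand) for C1qa, chr5:154407828-154408077 (minus strand) for C1qb, chr4:159098763-159099012 (plus strand) for C1r and chr9:2201340-2201589 (minus strand) for C3.
C1qa: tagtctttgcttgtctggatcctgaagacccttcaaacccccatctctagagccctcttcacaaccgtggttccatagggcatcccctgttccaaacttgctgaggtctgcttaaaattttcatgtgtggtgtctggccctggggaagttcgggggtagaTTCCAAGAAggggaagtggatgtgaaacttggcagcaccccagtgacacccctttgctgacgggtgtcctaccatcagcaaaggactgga
C1qb: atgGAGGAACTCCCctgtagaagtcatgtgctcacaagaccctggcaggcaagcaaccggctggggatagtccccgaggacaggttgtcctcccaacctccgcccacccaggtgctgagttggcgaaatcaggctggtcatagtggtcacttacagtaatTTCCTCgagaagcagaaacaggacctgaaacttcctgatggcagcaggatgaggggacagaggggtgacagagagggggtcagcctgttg
C1r: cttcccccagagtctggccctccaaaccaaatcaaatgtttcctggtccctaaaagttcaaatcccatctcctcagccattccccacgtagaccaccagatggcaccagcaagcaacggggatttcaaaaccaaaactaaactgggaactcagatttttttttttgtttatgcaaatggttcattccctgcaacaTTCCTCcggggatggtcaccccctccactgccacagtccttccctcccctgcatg
C3: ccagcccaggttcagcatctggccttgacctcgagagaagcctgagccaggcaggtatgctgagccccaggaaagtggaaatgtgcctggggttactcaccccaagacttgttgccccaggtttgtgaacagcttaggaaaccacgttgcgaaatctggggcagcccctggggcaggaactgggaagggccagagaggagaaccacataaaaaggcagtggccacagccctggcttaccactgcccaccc
The C1qa window held the STAT motif, whose first base lay 90 bases before the start, and 7.67% of 33469 promoter windows of the same length hold it. PU.1 cores began 247 and 90 bases before the start of C1qb and 55 bases before that of C1r, and 23.3% of all windows hold this core. The NF-kB motif, held by 3.57% of all windows, began 245 bases before the start of C1qb and overlapped the first PU.1 core there. The interferon regulatory factor pair (8.12% of all windows) matched in none of these 4 windows, and the C3 window matched none of the 4 motifs. A match is a string of letters and not a measured binding site.

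Between lung tumor and normal lung, the 9 genes moved in different directions. C2 rose 2.32-fold in tumor and Serping1 fell 2.85-fold, and these were the only members called. With marked spots left out, 6 members were tested and 1 was called higher and 0 lower, where 13.5% of 12471 probes were called higher and 15.5% lower. With marked spots kept, 1 of 9 members was called higher and 1 lower, and the same shares over 15803 probes were 13.5% and 14.4%. By the adjusted p alone 3 members were higher and 3 lower, or 6 of 9, while 66.1% of all probes passed it. With the near-identical arrays counted once, normal lung is 1 value. The spread of a probe then comes from 2 tumor values, and limma draws it towards the spread shared by all probes. For Serping1 the SE was 0.202 in that fit, with an SD of 0.061 between the 2 tumor values. In that form Serping1 was the only member to pass that limit, against 15.4% of all probes, and the adjusted p was 0.175 for C1qa, 0.166 for Cfb, 0.529 for C1s and 0.629 for C3. The tumor and normal lung arrays did not overlap for 6 of 9 members, and for 73.0% of all probes. The median log2 fold change of the 9 members was 0.42, against 0.06 over all probes, with marked spots kept. In bulk tissue, fewer cells of a type and less RNA per cell cannot be told apart.

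**Figure D1:**
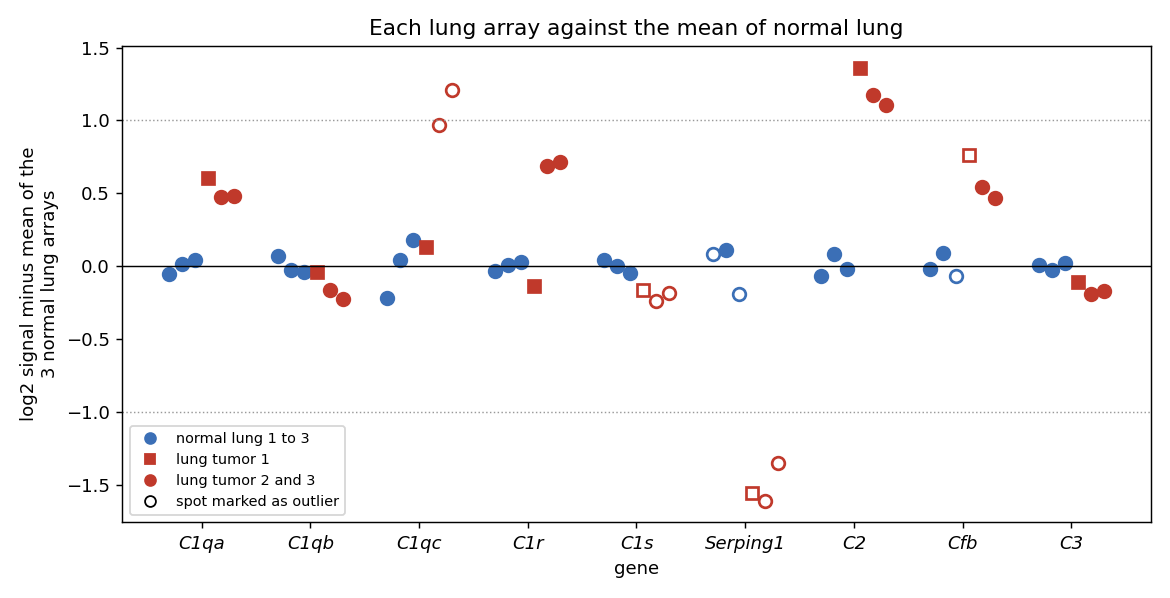
Log2 signal of each lung array minus the mean of the 3 normal lung arrays, by gene, with tumor 1 as squares and hollow symbols for spots marked as outliers; dotted lines mark a 2-fold difference. All tumor arrays lie above the upper line for C2 and below the lower line for Serping1, and for C1r and C1qc tumor 1 lies beside normal lung while tumor 2 and 3 lie above it.

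C1q is a bundle of 3 kinds of chain, A, B and C, encoded by C1qa, C1qb and C1qc, which neighbour each other on rat chromosome 5. The C1qa signal (NM_001008515.1) was 13.81, 13.88 and 13.91 on the normal lung arrays and 14.47, 14.34 and 14.35 in tumor 1, 2 and 3. Every tumor array lay above every normal lung array. The log2 fold change was 0.52 (SE 0.063, limma adjusted p = 0.00102), a 1.43-fold rise that stays under the 2-fold limit, and the tumor mean was 14.41 ± 0.087 (SD, n = 2). C1qb (NM_019262.1) read 13.18, 13.09 and 13.07 in normal lung and 13.07, 12.95 and 12.89 in tumor. Tumor 1 lay at the lower edge of the normal lung arrays and tumor 2 and 3 lay below them. Its log2 fold change of -0.14 (SE 0.070, limma adjusted p = 0.124) did not pass the test, and the tumor mean was 12.99 ± 0.10 (SD, n = 2). For C1qc (NM_001008524.1) the normal lung arrays gave 10.94, 11.20 and 11.34 and the tumors 11.29, 12.13 and 12.37. Tumor 1 lay within the normal lung arrays, and tumor 2 and 3, both with a marked spot, lay above them. With marked spots kept the log2 fold change was 0.77 (SE 0.30, limma adjusted p = 0.0679, and 0.027 with the replicate block) and the tumor mean 11.77 ± 0.68 (SD, n = 2). Without tumor 1 it became 1.09 (limma adjusted p = 0.00276) and C1qc passed both limits of a call. That fit rests on tumor 2 and 3, near-identical arrays that both had a marked spot. Its p therefore does not measure the spread between separate tumors. The log2 fold change was 0.13 for tumor 1 alone against the normal lung arrays of its slide.

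Macrophages are a known source of C1q, and 12 probes of a 13-gene macrophage list were on the array. Of the 9 tested with marked spots kept, 2 were called higher and 0 lower, with a median log2 fold change of 0.75, and over the alternatives the number called higher ran from 0 to 2. The list's summed signal was 427500 to 458800 in normal lung and 519500 to 578600 in tumor. Lyz2, which rose by 0.30 and was not called, was the brightest probe (means 18.03 and 18.33) and weighs most in these sums. Cd14, a receptor for bacterial lipopolysaccharide, rose by 1.64 and Cd74, the invariant chain of MHC class II, by 1.06 on the log2 scale (limma adjusted p = 9.4e-05 and 0.000709). All tumor spots of Cd14 were marked, and Cd74 changed by 0.82 with the slide as a block and had an adjusted p of 0.1 with arrays counted once. Csf1r, the receptor that macrophages need to survive, changed by -0.77, and no lung array measured Cd163, Marco or Mertk well above background. The part of these cells in the C1q values was not tested.

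C1r and C1s are the paired serine proteases of the C1 complex, and their genes neighbour each other on rat chromosome 4. The C1r probe (NM_001134555.1) gave 14.63, 14.67 and 14.69 in normal lung and 14.53, 15.35 and 15.38 in tumor. Tumor 1 lay just below the normal lung arrays and tumor 2 and 3 above them. The log2 fold change of 0.42 (SE 0.25, limma adjusted p = 0.179) did not pass the test, the tumor mean was 14.95 ± 0.59 (SD, n = 2), and against the normal lung arrays of its own slide tumor 1 gave -0.13. A gap between tumor 1 and the mean of tumor 2 and 3 at least as large as the 0.83 of C1r was found for 9.44% of 15803 lung probes, and one as large as the 0.96 of C1qc for 7.39%. C1s (NM_138900.1) stood at 14.68, 14.64 and 14.59 in normal lung and at 14.47, 14.40 and 14.45 in tumor, with all tumor spots marked. All tumor arrays lay below the normal lung arrays, by a small step. The log2 fold change was -0.20 (SE 0.054, limma adjusted p = 0.0205), a 1.15-fold difference, and the adjusted p was 0.0613 with the replicate block. The tumor mean was 14.44 ± 0.030 (SD, n = 2).

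Fibroblasts are another known source of C1r and C1s. Of 9 fibroblast probes tested with marked spots kept, 0 were called higher and 2 lower (Pdgfra, log2 fold change -2.38, and Mfap4, -1.43), with a median of -0.16. The summed signal of that list was 355800 to 367300 in normal lung and 320900 to 324400 in tumor. The gap between tumor 1 and the mean of tumor 2 and 3 was at least as large as that of C1r for 2 of the 9 (Dcn, -2.75, and Pdgfrb, -1.69, both named after their values were seen) and ran from -0.09 to 0.08 for 6, and for Lum it was 0.52, the other way. The part of fibroblasts in the C1r values was not tested.

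Serping1 encodes the C1 inhibitor, the serpin that inactivates C1r and C1s and also restrains kallikrein. Its probe (NM_199093.1) read 16.32, 16.35 and 16.05 in normal lung and 14.68, 14.63 and 14.89 in tumor. The groups lay far apart, with more than 1 log2 unit between the lowest normal lung array and the highest tumor. The log2 fold change was -1.51 (SE 0.12, limma adjusted p = 0.000156, marked spots kept), a 2.85-fold fall, and the tumor mean was 14.72 ± 0.061 (SD, n = 2). With the near-identical arrays counted once the fall was 1.52 on the log2 scale (adjusted p = 0.0374, with no spread from the normal lung arm), and tumor 1 against the normal lung arrays of its slide gave -1.57. Spots were marked on normal lung 1 and 3 and on every tumor array, so no tumor value remains once marked spots are left out.

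Serping1 is known as an interferon-responsive gene. Of 17 interferon response probes tested with marked spots kept, 1 was called higher (Mx1, log2 fold change 1.09) and 5 lower, among them Ifit3 (-2.45) and Rsad2 (-1.99), and the median was -0.42. With marked spots left out 9 were tested and 2 were lower, with a median of -0.19, and the Mx1 call was lost with near-identical arrays counted once (adjusted p = 0.115). The summed signal of this list was 265100 to 266800 in normal lung and 162500 to 171200 in tumor, without overlap. Whether the list and Serping1 are linked was not tested.

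C2 and Cfb encode the related serine proteases that cut C3, C2 in the classical and lectin pathways and factor B in the alternative pathway, and the genes lie side by side on rat chromosome 20. The C2 signal (NM_172222.2) was 15.49, 15.64 and 15.54 in normal lung and 16.92, 16.73 and 16.66 in tumor. All tumors lay above all normal lung arrays, and none of the spots was marked. The log2 fold change was 1.21 (SE 0.090, limma adjusted p = 0.000152), a 2.32-fold rise, with a tumor mean of 16.81 ± 0.16 (SD, n = 2). Tumor 1 alone lay 1.37 above the normal lung arrays of its slide. With the near-identical arrays counted once the log2 fold change was 1.25 and the adjusted p 0.0626, so the call was lost.

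Cfb (NM_212466.3) gave 15.57, 15.68 and 15.52 in normal lung and 16.35, 16.13 and 16.06 in tumor, with a marked spot on normal lung 3 and on tumor 1. Again every tumor lay above every normal lung array. Without the marked spots the log2 fold change was 0.47 (SE 0.085, limma adjusted p = 0.0157) and with them 0.59 (adjusted p = 0.00308), a 1.51-fold difference in the second case, and the tumor mean was 16.22 ± 0.18 (SD, n = 2). The rise stays under the 2-fold limit in both.

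C3 is cut by both kinds of enzyme and marks the target for uptake. Its probe (NM_016994.2) was bright and even, at 16.16, 16.12 and 16.17 in normal lung and 16.04, 15.96 and 15.98 in tumor. The tumors lay slightly below the normal lung arrays without overlap. The log2 fold change was -0.16 (SE 0.051, limma adjusted p = 0.0402), a 1.12-fold difference, with a tumor mean of 16.00 ± 0.048 (SD, n = 2). With the replicate block the adjusted p was 0.0951.

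Other genes of the system were called in both directions. Of 41 further complement genes 32 had a probe, 33 probes in all, and no probe was matched for C5, C7, C8b, C8g, Colec11, Cd59, C5ar1, C5ar2 and Itgax. With marked spots left out 22 probes were tested, and 4 were called higher and 7 lower, with a median log2 fold change of -0.08. With marked spots kept 30 were tested, and 7 were higher and 7 lower, with a median of 0.00, beside the 13.5% higher and 14.4% lower of all probes in that fit. No lung array measured the 3 probes of Cr2, Itgam and Cpn2 well above background.

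**Figure D2:**
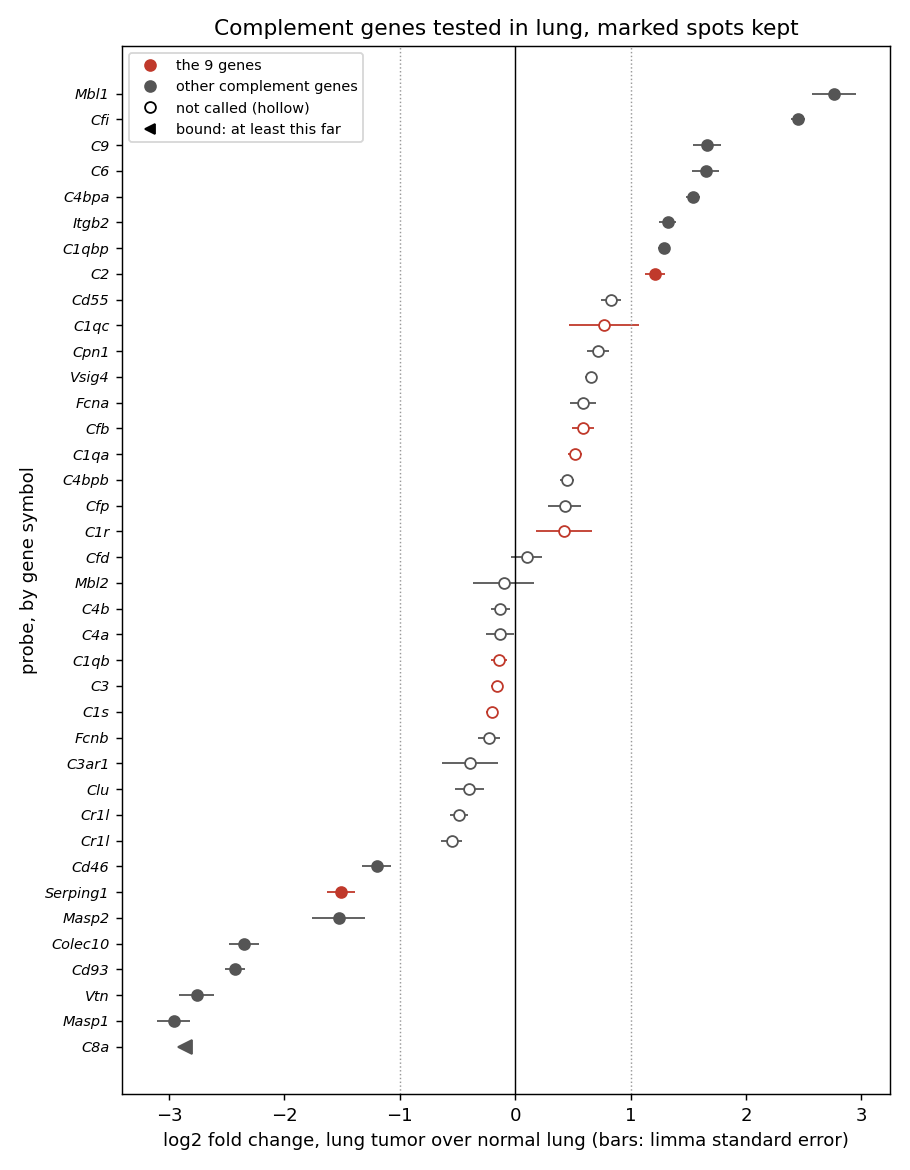
Log2 fold change of lung tumor over normal lung with its limma standard error for the 9 genes (red) and the other complement genes (grey) tested with marked spots kept; filled circles are called, dotted lines mark 2-fold, and the triangle of C8a is a bound because no tumor array measured it. C2 and Serping1 are the filled red points, and Mbl1 at 2.76 and Masp1 at -2.96 lie near the ends of the range.

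In the lectin pathway, the mannose-binding lectin gene Mbl1 rose and the proteases and a collectin fell. Mbl1 read 10.32, 10.27 and 10.32 in normal lung and 12.64, 13.30 and 13.26 in tumor (log2 fold change 2.66, limma adjusted p = 0.000556). Masp1, a protease of that pathway, fell from 7.85, 8.08 and 7.81 to 5.22, 4.84 and 4.80 (-2.96), Masp2, the protease that cuts C4 and C2, by 1.53, and the collectin gene Colec10 by 2.35. The groups overlapped for none of these 4 genes, which were named because they were called, and 73.0% of all probes did not overlap either. The call of Masp2 was lost with near-identical arrays counted once (adjusted p = 0.078), with normexp (-0.51) and in the paired form of the methods' t-test (0.0839), and that of Mbl1 in the paired form (0.136). Mbl2, by contrast, was near the background limit in lung (3.95 to 4.89 on the 6 arrays, log2 fold change -0.10).

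Members of the membrane attack complex, the pore that ends the cascade, also parted. C9, which lines the pore, read 8.99, 9.09 and 9.08 in normal lung and 10.95, 10.66 and 10.51 in tumor (log2 fold change 1.66, limma adjusted p = 0.000157). With near-identical arrays counted once the adjusted p of C9 was 0.0515, so the call was lost, and 0.0456 in the fit that kept marked spots. C6 rose by 1.65 with marked spots kept, from 10.60, 10.58 and 10.60 to 12.49, 12.15 and 12.10. C8a was measured on the 3 normal lung arrays (6.07, 5.93 and 6.06) and was not well above background on any tumor, so that it was at least 7.26-fold lower there, although its log2 fold change was only -0.97 with normexp background correction. Vtn, for vitronectin, which binds and blocks the forming pore, fell by 2.76, from 10.06, 10.10 and 10.05 to 7.62, 7.29 and 7.04.

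Among regulators, factor I and a chain of its cofactor rose. Cfi, the protease that destroys C3b and C4b, read 12.80, 12.76 and 12.79 in normal lung and 15.33, 15.16 and 15.19 in tumor (log2 fold change 2.45, limma adjusted p = 5.72e-06). C4bpa, a chain of the C4b-binding protein that serves it as a cofactor, rose by 1.54 with marked spots kept. The membrane regulator Cd55 gave 0.83 with marked spots kept, under 2-fold. Cd46, a further membrane cofactor, fell by 1.20, a call that was lost in the fit blocked by slide (-0.97) and with near-identical arrays counted once (adjusted p = 0.0871).

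The alternative pathway protease Cfd (log2 fold change 0.19, limma adjusted p = 0.277) did not pass the test. Properdin (Cfp), which stabilises the C3-cutting enzyme of that pathway, gave 0.43 with marked spots kept (limma adjusted p = 0.0414). C4a and C4b, near-identical copies whose signals the probes may share, both gave -0.05 with marked spots left out (adjusted p = 0.736 and 0.477). Of receptors and binding proteins, C3ar1, the receptor for C3a, gave -0.39 (adjusted p = 0.203), Cd93, an endothelial and myeloid surface protein once described as a C1q receptor, fell by 2.43, Itgb2, the shared chain of complement receptors 3 and 4, rose by 1.32 with marked spots kept, and C1qbp, which binds the globular heads of C1q and is mostly mitochondrial, rose by 1.29.

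Markers of other cell types also differed between tumor and normal lung, mostly downwards. Of 14 hepatocyte probes tested with marked spots kept, 11 were lower and 1 higher (Hp, log2 fold change 2.02), with a median of -3.85, and Apoh (-6.67, well above background on 1 of 3 tumor arrays) and Ttr (-5.73) were the 2 called probes with the largest fitted change. The summed signal of this list was 128200 to 132600 in normal lung and 85680 to 92700 in tumor. Fgg, which rose by 0.75 and was not called, was the brightest probe in tumor (mean 16.18) and weighs most in the tumor sum. Albumin (Alb) read 13.84, 13.85 and 13.89 against 9.21, 10.96 and 11.16. Type 1 alveolar probes were lower in 6 of 8 tests (Pdpn and Cav1, both -2.38), endothelial probes in 4 of 4 (Tek, -2.74, and Cldn5, -1.94), red blood cell probes in 4 of 6 (Ahsp, -3.99, and Alas2, -3.09) and neutrophil probes in 3 of 6 (Csf3r, -2.40, and S100a8, -2.12), although with marked spots left out the neutrophil count was 1 of 4. Platelet probes were lower in 3 of 4 tests, where Ppbp and Gp9 were at least 4.47-fold and 3.41-fold lower. The other probe, Pf4, went the other way (log2 fold change 0.98, under 2-fold, with its spot marked on every lung array). Tumor 1 gave 1.11 for Pf4 against the normal lung arrays of its slide. The summed signal of the platelet list was 4927 to 5266 in normal lung and 7746 to 9075 in tumor. Type 2 alveolar probes, a check of the tissue label, were higher in 2 of 8 (Lpcat1, 1.41, and Sftpc, 1.14). The adipocyte list had 1 higher of 3 (Adipoq, 5.27), the B cell list 1 of 1 (Cd79b, at least 1.59-fold) and the T cell list 0 of 6. The part of any of these cells in the complement values was not tested.

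In blood, C2 and C3 were at least 2-fold higher in the NNK clot than in the control clot, and no member was 2-fold lower. These are 2 of the 5 members measured well above background on both arrays, where 17.9% of 11767 such probes were at least 2-fold higher and 14.7% lower. With 1 array for each group there is no replicate check and no test. C2 read 7.62 in control and 9.92 in NNK blood, a 4.92-fold difference, and C3 read 9.65 and 10.65, a 2.01-fold difference. C1qa stood at 4.49 and 5.23, Cfb at 7.63 and 8.04 and C1qb at 12.37 and 12.05. The C3 difference lay at the 2-fold limit and was 0.81 on the log2 scale with all 8 arrays normalized together and 0.73 in the authors' values. C1qa differed by less than 2-fold here (0.74), but by 1.11 and 1.30 in those settings and by only 0.21 with normexp background correction. Cfb stayed under 2-fold in each of the 6 alternatives, and C1qb was lower in the NNK clot.

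The remaining members were weak in blood. C1r (2.96 and 4.35) and Serping1 (2.92 and 4.31) were not well above background in the control clot, so that they were only at least 1.04-fold and 1.01-fold higher in the NNK clot. C1qc and C1s were not well above background in either clot. The median log2 difference of the 5 members measured on both arrays was 0.74, against -0.14 over all such probes. The NNK array was the brighter one, with a 75th percentile of the signal of 205.8 against 95.36. With each array shifted to a common 75th percentile, C3 differed by 0.46, C2 by 2.03, C1qa by 1.02 and C1qb by -1.22 on the log2 scale.

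**Figure D3:**
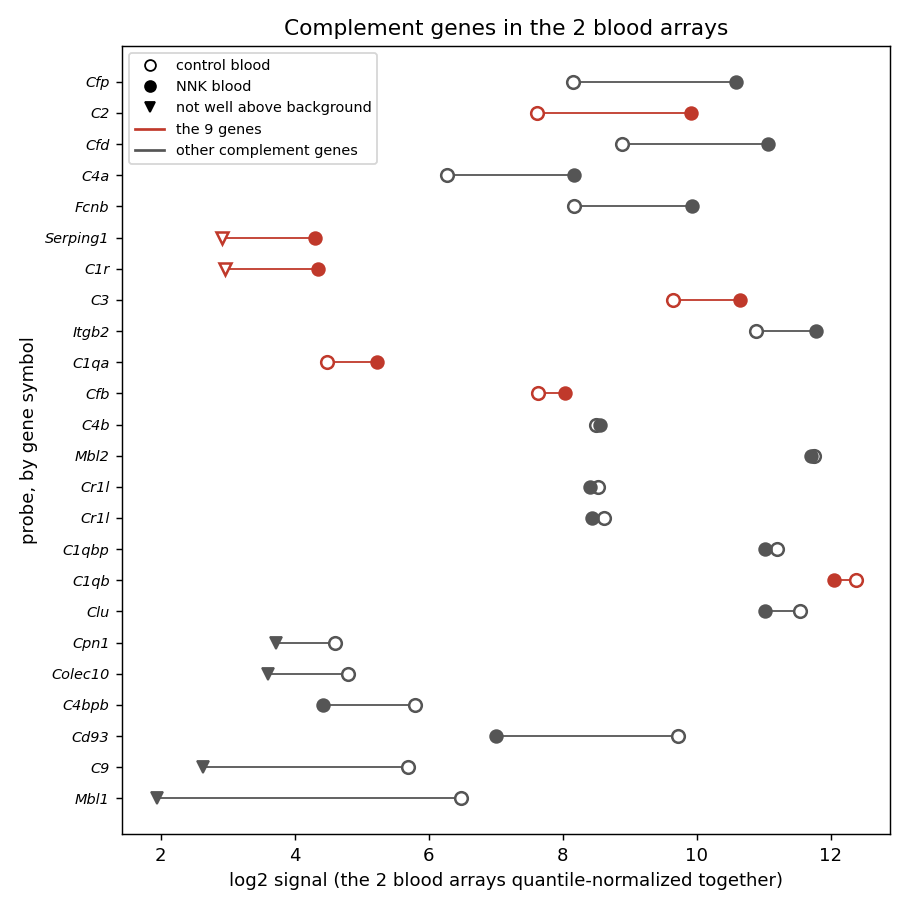
Log2 signal of the complement probes well above background on at least 1 blood array, hollow for control and filled for NNK blood, with triangles where the probe was not well above background; the 9 genes are red. C2 moved from 7.62 to 9.92, while C1qb stood at 12.37 and 12.05.

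Of 14 probes of other complement genes measured on both blood arrays, 4 were at least 2-fold higher in the NNK clot. These were properdin (Cfp, 8.16 and 10.58), Cfd (8.89 and 11.07), C4a (6.28 and 8.17) and the ficolin gene Fcnb (8.17 and 9.93). C4b, the near-identical copy of C4a, read 8.50 and 8.55. The median log2 difference over the 14 probes was 0.00. Cd93 (a log2 difference of -2.72) and C4bpb (5.79 and 4.43) were lower, and Mbl1, C9, Colec10 and Cpn1 were measured in the control clot alone. Properdin and ficolin B are known products of neutrophils and other myeloid cells, and the summed signal of the neutrophil list was 15180 in control and 71380 in NNK blood, with 3 of 6 probes at least 2-fold higher and S100a8 at 13.71 and 16.04. The macrophage list summed to 51930 and 93440, with Lyz2 (15.48 and 16.23 on the log2 scale) its brightest probe. The part of these cells in the complement values was not tested. All 6 red blood cell probes were well above background on every lung and blood array, so the check of the blood label lies in their level. Alas2, the heme synthesis enzyme of red cell precursors, read 18.61 and 18.86 in the clots and 10.23 to 13.33 in lung with all 8 arrays normalized together, and the band 3 gene Slc4a1 read 16.49 and 15.95 against 4.69 to 7.37.

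Levels across tissues were compared after quantile normalization of all 8 arrays together, as values only. C1qa read 12.83 to 12.94 in normal lung, 13.41 to 13.55 in tumor, 5.02 in control and 6.13 in NNK blood, so that normal lung lay 234-fold above control blood on this scale. Over the 6 alternatives this difference of C1qa ran from 6.21 to 9.37 log2 units. C1qb stood apart from its partners, with 12.07 to 12.18 in normal lung, 11.89 to 12.07 in tumor, 14.64 in control and 14.44 in NNK blood. Blood was thus the higher tissue for C1qb on this scale, and the lower one for the other 8 members.

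The order for C1qb turned under 1 of the 6 alternatives. Normal lung minus control blood was -2.53 on the log2 scale over all 8 arrays together and -2.78 to -2.53 in 5 alternatives, and it was 0.75 when lung and blood were normalized separately. Before normalization the C1qb signal was 8701 to 9818 in normal lung, 7147 to 8426 in tumor, 4941 in control and 4589 in NNK blood. The C1qa signal, by comparison within its own probe, was 14940 to 17030 in normal lung and 13.75 and 60.38 in the blood arrays, and that of C1qc was 1947 to 2525 in normal lung and 2.387 and 6.249 in blood. C1qa and C1qb were well above background in both clots and C1qc in neither. Levels of different probes were not compared, because each probe has its own signal scale.

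For the remaining members the order ran from lung to blood. C2 stood highest in tumor (16.17 to 16.49), then in normal lung (14.75 to 14.95), NNK blood (12.86) and control blood (10.32). Cfb followed the same order, with 15.47 to 15.81, 14.80 to 14.99, 10.91 and 10.34. C3 stood at 15.53 to 15.59 in normal lung, 15.35 to 15.44 in tumor, 13.44 in NNK blood and 12.63 in control blood.

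Among the other 3 with a protease or inhibitor role, Serping1 stood at 15.45 to 15.81 in normal lung, 13.73 to 14.04 in tumor, 4.77 in NNK blood and 3.11, not well above background, in control blood, at least 1960-fold below normal lung on this scale. C1r was at least 524-fold and C1s at least 514-fold lower in control blood than in normal lung on this scale. Normal lung and tumor overlapped in range for C1r (13.73 to 13.80 and 13.62 to 14.62) and not for C1s (13.69 to 13.79 and 13.47 to 13.54). C1qc was at least 46.1-fold lower in control blood than in normal lung, and its tumor 1 value of 10.38 lay among the normal lung values of 10.07 to 10.42. These bounds move with the scaling. Taken from the signals as they stand, normal lung minus control blood ran over the 6 alternatives from 9.62 to 13.32 log2 units for Serping1, 7.58 to 11.70 for C1r, 7.64 to 12.06 for C1s and 4.29 to 9.21 for C1qc.

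**Figure D4:**
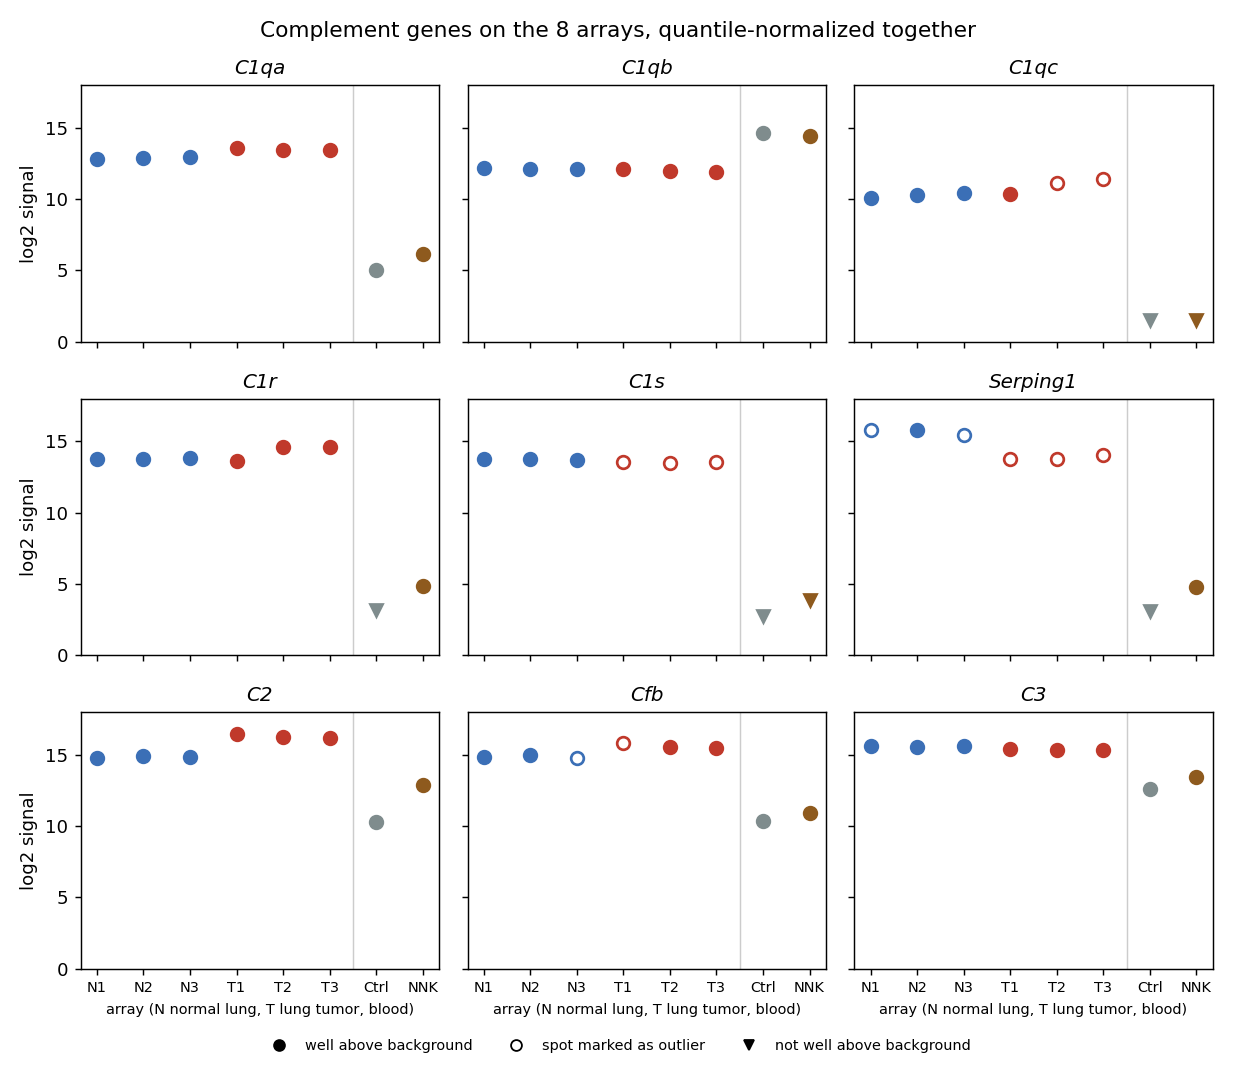
Log2 signal of each gene on the 8 arrays, quantile-normalized together (N normal lung, T lung tumor, Ctrl control blood, NNK NNK blood); hollow circles are spots marked as outliers and triangles are not well above background. C1qb is the only panel in which blood, at 14.64 and 14.44, lies above lung.

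The probes most alike to these profiles were sought among 11160 mRNA probes of named genes by the root mean square difference of centred log2 signals over the 8 arrays, which lung and blood dominate. For the mean of the C1q probes they were Uqcrc2 (0.109), C2h5orf34 (0.139), Fgl1 (0.141), Naaa (0.147) and Mterf3 (0.148). For C3 they were Impa1 (0.0494), Pnrc1 (0.0794), Plod3 (0.0806), Strap (0.0848) and Fah (0.0851). None of these 10 genes is a complement gene of the lists. The C1q mean joins C1qa and C1qc, lower in blood than in lung on the scale of all 8 arrays, with C1qb, which was higher.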

How the data were processed

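RNA of 6 lung and 2 blood samples was hybridised to the Arraystar rat lncRNA array, 1 array per sample. The authors deposited spot intensity values of Agilent Feature Extraction 10.5.1.1 (submitters' processing notes), background-subtracted and not yet comparable between arrays, and also log2 values that they quantile-normalized over the 8 arrays in GeneSpring, used here as an alternative (Spearman correlation with the scanner signals 0.988 to 0.997 over probes). With limma 3.58.1 in R 4.3.3, log2 signals of 42136 spots were quantile-normalized by tissue and averaged per probe. A lung probe entered the test if over 50% of its spots passed the software's background test on 3 or more of the 6 arrays and 2 or more arrays of each group kept a value. Spots of 6 members on all 6 lung arrays had been read at low scanner gain and scaled up by the software, and the software marked no spot as saturated, although 6 spots of the NNK clot, none of a member, shared the highest signal of the series. Of 15323 mRNA accessions, 14274 (93.2%) matched a RefSeq gene.

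Tumor and normal lung were compared by lmFit and eBayes with a single group term, tested on simulated data. Tumors and normal tissues carry the same set of numbers and the study calls them matched, but the labels do not say that equal numbers are 1 rat. The replicate block takes equal numbers as pairs. Deviations of same-numbered arrays correlated at 0.164, -0.0131 and 0.156 over probes, and those of unlike-numbered arrays at -0.18 to 0.134. Where no array of a group measured a probe, the fold is a bound against the lowest signal that passed the background test. All members are named with every value. Of the other complement genes the rule names up to 8 called with the largest rise and 8 with the largest fall, plus C4a, C4b, C5, Cfd, Cfp, Cfi, Cd55, C3ar1 and C5ar1, and of each marker list the 2 called probes that changed most. Among the other complement genes, 1 is counted but not otherwise reported here. Members, lists and rules were chosen with earlier results of these data known.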

Additional observations from a re-analysis of the deposited data

How the results depend on the processing

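The lung comparison was rerun under 19 alternatives. With marked spots left out as a base, the members called higher were 1 (C2) in all but 1 of them and 0 when near-identical arrays were counted once. With marked spots kept, C1qc was also called without tumor 1 (1.09), in a fit that leaves only the near-identical tumor 2 and 3. The members called lower were 0 with marked spots left out and 1 (Serping1) with marked spots kept or in the authors' normalized values. For C2 the log2 fold change ran from 1.14 to 1.55, with an adjusted p of up to 0.0626, and for Serping1 from -1.85 to -1.45, with an adjusted p of up to 0.0374. Of the other complement genes, 4 were called higher in the main setting and 7 with marked spots kept or in the authors' values. With near-identical arrays counted once the calls of C9 (adjusted p = 0.0515), Masp2 (0.078) and Cd46 (0.0871) were lost, and Cd46 was -0.97 with the slide as a block. The calls of C8a (-0.97) and Masp2 (-0.51) were lost with normexp, and those of Mbl1 and Masp2 (adjusted p = 0.136 and 0.0839) in the paired form of the methods' t-test. Reversals were C1r (-0.13), C4a (0.13) and C3ar1 (0.12) with the slide as a block, C4b (0.14) with normexp background correction, and Mbl2 (0.08) with a 75th percentile shift. Leaving out 1 array at a time, the log2 fold change ran from -0.23 to 0.13 for C4a, -0.27 to 0.20 for Mbl2 and -0.01 to 0.39 for Cfd, the sign turning without tumor 2 for C4a and without tumor 1 for the other two. The marked spot of tumor 3 was already left out for C4a and Cfd, so these ends are single tumors, and with marked spots kept C4a was -0.13 and Cfd 0.10. C1qb turned from blood above lung to 0.75 when lung and blood were normalized separately. Of the marker lists, the number called moved by more than 1.5 times in 8 alternatives for macrophage probes called higher (0 to 2), in 10 for neutrophil probes called lower (0 to 3), in 8 for B cell probes called higher (0 to 1) and in 6 each for type 2 alveolar (1 to 4) and interferon response (0 to 1) probes called higher. The replicate block changed no member's call (C2 adjusted p = 0.00282, Serping1 0.00383). In blood the members measured in both clots and at least 2-fold higher fell from 2 to 1 with normexp, which adds an offset of 50. Those at least 2-fold lower rose from 0 to 1 (C1qb) with the 75th percentile shift. C3 was under 2-fold with normexp (0.92 on the log2 scale) and with the 75th percentile shift (0.46). It was also under 2-fold with all 8 arrays normalized together (0.81) and in the authors' values (0.73). In these settings other than normexp, C1qa passed 2-fold instead (1.02, 1.11 and 1.30), so the count stayed at 2. The cause of the other changes was not tested. Signal over background limits C1qc, C1s, C1r and Serping1 in blood, and 1 spot per gene allows no check within an array.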
